A study of Caenorhabditis elegans with 50 samples.

Results

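The comparison described here set the effect of daf-16 in a weak insulin receptor mutant, daf-2(e1368), against the effect of daf-16 in a mutant without a germline, glp-1(e2141), in whole adults of the nematode Caenorhabditis elegans. The members were taken by strain label alone: 30 of the 50 libraries of the series, 5 for each of 6 strains. One family consisted of the single mutant daf-2(e1368), its double daf-16(mg54);daf-2(e1368) and its double carrying the other allele, daf-16(mu86);daf-2(e1368). The glp-1 family held glp-1(e2141), the double daf-16(mg54);glp-1(e2141) and the double with mu86, daf-16(mu86);glp-1(e2141). The strains of the daf-2(e1368) family were kept at 15 °C for 72 hours and then at 20 °C, and the 3 glp-1 strains were kept at 25 °C for 48 hours, so that temperature and genetic background cannot be told apart between the families. The library numbers in the sample titles also form a separate series for each family. What these numbers record is not stated, and it cannot be told apart from family either. All 6 strains were harvested on day 1 of adulthood, and the labels call the 5 libraries of a strain separate biological samples. No animal in these families is wild type for both daf-2 and glp-1, and each genotype is 1 strain. The daf-16 effect is the log2 level in the single mutant minus the mean of its mg54 and mu86 doubles, so a positive effect means more RNA where daf-16 is intact. The difference is the effect in daf-2(e1368) minus the effect in glp-1(e2141), so a positive difference means that daf-16 raised a gene more, or lowered it less, in daf-2(e1368).

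DAF-16 is the FOXO transcription factor of C. elegans. DAF-2, the insulin/IGF-1 receptor, keeps DAF-16 in the cytoplasm through a kinase cascade, and reduced receptor activity lets DAF-16 into nuclei, where it raises stress defence and metabolic genes. GLP-1 is a Notch receptor that keeps germline stem cells dividing, and animals that lose these cells live long in a daf-16 dependent way, with DAF-16 acting mainly in the intestine together with steroid signalling and the elongation factor TCER-1. The mg54 allele carries a nonsense change in daf-16 and mu86 is a deletion.

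Polyadenylated RNA was sequenced as paired ends of 100 cycles, and library totals were 19893300 to 34213900 counted fragments in the daf-2(e1368) family and 13822800 to 23811800 in the glp-1 family. The entry H36N01.2,H36N01.3,R13H8.4, at the daf-16 locus on chromosome I, stood at 123 to 225 CPM (counts per 1e6 counted fragments, scaled by TMM) in daf-16(mu86);daf-2(e1368) and 188 to 305 CPM in daf-16(mu86);glp-1(e2141), against 0.0733 to 0.997 CPM in the other 4 strains, which matches the strain labels for mu86. The nonsense allele mg54 was not checked by these counts. Oogenic germline marker genes summed to 12430 to 22890 CPM in the daf-2(e1368) family and to 116 to 249.7 CPM in the glp-1 family, and sperm marker genes to 1262 to 4926 CPM and to 66.3 to 82.3 CPM. Of the glp-1 family, 3 libraries stood apart from the other 12 on the first principal component of the deviations from the strain means: glp-1(e2141) replicate 0, daf-16(mg54);glp-1(e2141) replicate 2 and daf-16(mu86);glp-1(e2141) replicate 3. Their pharynx markers summed to 31.3 to 58.8 CPM, against 57.4 to 215 CPM in the other 12. Results are given with these 3 libraries, and the values without them stand beside those that they move. RNA came from whole animals, so fewer cells of a type and less RNA per cell cannot be told apart.

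The daf-16 effects differed between the backgrounds for 88 of 9610 gene entries tested (0.916%; edgeR's quasi-likelihood test, Benjamini-Hochberg adjusted p under 0.05 throughout). The difference was positive for 40 (0.416%) and negative for 48 (0.499%), and 77 of the 88 entries name a single gene. Before adjustment, 1013 entries had p under 0.05. The effect in daf-2(e1368) passed for 508 entries (5.29%), with 233 higher (2.42%) and 275 lower (2.86%) than in the doubles. The effect in glp-1(e2141) passed for 803 (8.36%), with 482 higher (5.02%) and 321 lower (3.34%). Of the entries that daf-16 raised, 143 passed in both backgrounds, which is 61.4% of those in daf-2(e1368) and 29.7% of those in glp-1(e2141). Of those that it lowered, 54 passed in both, 19.6% and 16.8% of the lists. These shares depend on how many entries passed in each background, and that order depended on the fit. With each family fitted alone, more entries passed in daf-2(e1368) than in glp-1(e2141), and the shares were not computed with that fit. A call in one background and not in the other was seldom a tested difference: of 308 entries called in daf-2(e1368) alone the difference passed for 32, and of 603 called in glp-1(e2141) alone it passed for 37. Another 185 entries were called the same way in both without a difference that passed. The median standard error of the difference over all entries was 0.20 on the log2 scale.

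The split of positive and negative differences depended on scaling and filtering. It was 35 and 27 with size factors of the median-of-ratios kind, 45 and 25 when the filter on low counts ran over all 30 libraries together, 37 and 20 with no filter, and 55 and 139 when loci with failed estimates were kept. Without the 3 libraries that stood apart, 107 and 192 entries passed, and all 88 entries named above were among them. The count was 196 without daf-16(mu86);glp-1(e2141) replicate 3 alone, and 54 without daf-2(e1368) replicate 1 or without glp-1(e2141) replicate 4.

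**Figure D1:**
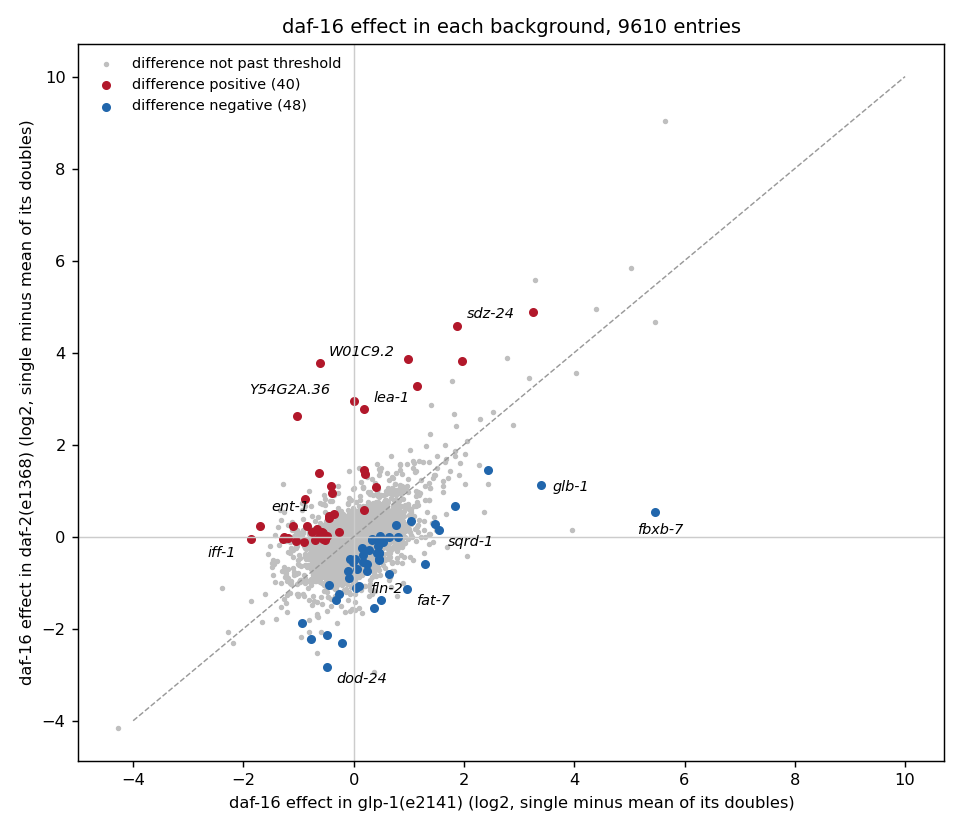
Each point is 1 of 9610 gene entries, with its daf-16 effect in glp-1(e2141) on the x axis and in daf-2(e1368) on the y axis, both on a log2 scale; the dashed line marks equal effects. The 40 entries with a positive difference lie above the line and the 48 with a negative difference below it, and the grey points far up on the right are entries raised in both backgrounds whose difference did not pass. The grey point nearest the top is CELE_Y6G8.9, whose fitted effect depends on how the fit treats counts of 0.

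The most certain difference was in lea-1, which encodes a late embryogenesis abundant protein of the kind that protects cells in desiccation. In the daf-2(e1368) family lea-1 stood at 1825, 2410, 2056, 2186 and 1676 CPM in the 5 daf-2(e1368) libraries, against 236, 292, 318, 299 and 296 CPM in its mg54 double and 299, 315, 296, 329 and 306 CPM in its mu86 double. The glp-1 strains held it at 318, 322, 371, 256 and 258 CPM in the 5 glp-1(e2141) libraries, against 237, 324, 245, 295 and 234 CPM in its mg54 double and 274, 249.6, 309.7, 222 and 283 CPM in its mu86 double. Every daf-2(e1368) library lay above all 10 of its doubles, while the glp-1(e2141) libraries overlapped theirs and all 15 glp-1 family libraries lay near the level of the daf-2(e1368) doubles. The effect of daf-16 was 2.77 ± 0.10 (log2, SE, n = 5 libraries per strain) in daf-2(e1368) and 0.19 ± 0.10 in glp-1(e2141), a difference of 2.58 ± 0.14 with adjusted p = 4.32e-13 by edgeR. The deposited coordinates of lea-1 (chromosome V, 9943314 to 10239917 on ce10) span a bundle of overlapping models, as they do for sdz-24, F54C8.1 and fbxb-7.

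In all, 12 of the 40 positive differences had an effect that passed upward in daf-2(e1368) and did not pass in glp-1(e2141). Y54G2A.36 (chromosome IV, 2896967 to 2901672 on ce10), picked after its values were seen, had 76.2, 83.4, 62.7, 91.7 and 89.6 CPM in the 5 daf-2(e1368) libraries, against 9.29, 12.1, 9.71, 10.8 and 10.8 CPM in its mg54 double and 10.3, 11, 10.2, 9.75 and 11.1 CPM in its mu86 double. Its glp-1 family values were 0.511, 0.572, 0.633, 0.735 and 0.582 CPM in the 5 glp-1(e2141) libraries, against 0.772, 0.714, 0.384, 0.669 and 0.269 CPM in its mg54 double and 0.861, 0.599, 0.822, 0.532 and 0.518 CPM in its mu86 double. The daf-2(e1368) libraries stood apart from their doubles and the glp-1 strains overlapped at levels under 1 CPM. The effect was 2.94 ± 0.12 in daf-2(e1368) and 0.01 ± 0.19 in glp-1(e2141), and the difference was 2.93 ± 0.23 (adjusted p = 7.81e-10). Y54G2A.36 also stood more than 10 times higher over the daf-2(e1368) family than over the glp-1 family. W01C9.2, also picked after its values were seen, was low in both families, with 2.54 ± 1.19 CPM (mean and SD) in daf-2(e1368), 0.103 ± 0.0676 and 0.322 ± 0.184 CPM in its mg54 and mu86 doubles, 0.373 ± 0.151 CPM in glp-1(e2141) and 0.783 ± 0.356 and 0.402 ± 0.293 CPM in its doubles. Its difference was 4.38 ± 0.61 (adjusted p = 7.86e-05). The C-type lectin gene clec-76 (2.88 ± 0.65, adjusted p = 0.0217) and ugt-18 (3.65 ± 0.68, adjusted p = 0.00417), a UDP-glucuronosyltransferase gene, had the same pattern from low counts.

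Another 5 positive differences were larger rises in daf-2(e1368) of entries that daf-16 raised in both backgrounds. For sdz-24 the daf-2(e1368) family held 7.96, 4.42, 11.7, 12.3 and 10.1 CPM in the 5 daf-2(e1368) libraries, against 0.435, 0.492, 0.307, 0.154 and 0.224 CPM in its mg54 double and 0.475, 0.393, 0.706, 0.37 and 0.279 CPM in its mu86 double. The glp-1 family held 33, 28, 15.5, 22.1 and 17.1 CPM in the 5 glp-1(e2141) libraries, against 6.39, 6.43, 4.61, 6.13 and 2.61 CPM in its mg54 double and 4.37, 8.86, 8.41, 9.74 and 6.11 CPM in its mu86 double. Both single mutants lay above all of their doubles, and each daf-2(e1368) family strain was lower than its glp-1 counterpart, the doubles by more than the single mutants. The effect was 4.59 ± 0.27 in daf-2(e1368) and 1.88 ± 0.23 in glp-1(e2141), and the difference was 2.71 ± 0.37 (adjusted p = 6.67e-05). The C-type lectin gene clec-52 had effects of 1.09 ± 0.10 and 0.41 ± 0.10 with a difference of 0.68 ± 0.15 (adjusted p = 0.0203), which rested on the mu86 doubles, as described further on. It averaged 41.8 CPM in glp-1(e2141), 23.1 CPM in its mg54 double and 42.9 CPM in its mu86 double. Its rise in glp-1(e2141) was thus seen against the mg54 double and not against the mu86 double.

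Genes that daf-16 lowered in daf-2(e1368) but not detectably in glp-1(e2141) made up 20 of the 48 negative differences. The largest of these by log2 difference was dod-24 (chromosome IV, 12940150 to 12941328 on ce10), a gene of the CUB-like group expressed in the intestine and known as lowered by DAF-16. It stood at 2.6, 1.87, 3.66, 4.98 and 3.28 CPM in the 5 daf-2(e1368) libraries, against 19, 17.1, 23.6, 20.1 and 22 CPM in its mg54 double and 23.3, 18.2, 38.7, 28 and 22 CPM in its mu86 double. With glp-1(e2141) as background it stood at 133, 85.8, 101, 151 and 112 CPM in the 5 glp-1(e2141) libraries, against 138, 100.0, 236, 125 and 129.7 CPM in its mg54 double and 190.2, 218, 136, 202 and 164 CPM in its mu86 double. All daf-2(e1368) libraries lay below all of their doubles, the glp-1 strains overlapped, and every glp-1 family library was above every daf-2(e1368) family library. The effect was −2.82 ± 0.23 against −0.49 ± 0.19, and the difference was −2.34 ± 0.29 (adjusted p = 8.74e-06).

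The filamin gene fln-2 (chromosome X, 9397634 to 9427440 on ce10), whose product crosslinks actin, averaged 69.8 ± 14.9 CPM in daf-2(e1368), 142 ± 33 CPM in its mg54 double and 153 ± 30.6 CPM in its mu86 double (SD, n = 5 each). In the glp-1 family it averaged 329.6 ± 50.8 CPM in glp-1(e2141), 314 ± 11.6 CPM in the mg54 double and 301 ± 37.3 CPM in the mu86 double. The lower level in daf-2(e1368) was free of overlap with the doubles, and the difference was −1.18 ± 0.18 (adjusted p = 3.30e-04). CELE_Y39B6A.24 averaged 2.81 ± 0.867 CPM in daf-2(e1368), 12 ± 2.92 CPM in the mg54 double and 16.6 ± 3 CPM in the mu86 double, against 12.5 ± 1.91, 17.7 ± 3.09 and 11.8 ± 3.02 CPM in glp-1(e2141) and its mg54 and mu86 doubles. Its difference of −2.11 ± 0.25 (adjusted p = 6.35e-06) had the same form as that of dod-24, in that the glp-1 strains did not separate.

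Opposite effects that both passed were found for 3 entries: fat-7, ent-1 and the entry nspc-17,nspc-18. The entry nspc-17,nspc-18 averaged 2.02 CPM in daf-2(e1368), 2.43 CPM in its mg54 double and 5.11 CPM in its mu86 double. Its daf-2(e1368) libraries overlapped the mg54 double, so its fall in that background rested mainly on the mu86 strain. FAT-7 is a stearoyl-CoA desaturase, which makes oleic acid. The gene fat-7 (chromosome V, 7151427 to 7153112 on ce10) stood at 95, 98.6, 129, 127 and 106 CPM in the 5 daf-2(e1368) libraries, against 229.7, 212, 357, 234 and 279 CPM in its mg54 double and 199.9, 225, 242, 231 and 242 CPM in its mu86 double. Its values were 37.7, 98.9, 105, 62.1 and 94.5 CPM in the 5 glp-1(e2141) libraries, against 26.6, 28.7, 14.7, 28.4 and 19.4 CPM in its mg54 double and 89.5, 73.8, 63.8, 60.5 and 62.7 CPM in its mu86 double. In the daf-2(e1368) background every single mutant library lay below both doubles. In the glp-1 background every single mutant library lay above the mg54 double, while the single mutant and the mu86 double overlapped. The effect was −1.14 ± 0.19 in daf-2(e1368) (adjusted p = 1.30e-04) and 0.97 ± 0.17 in glp-1(e2141) (adjusted p = 3.69e-04). The difference of −2.11 ± 0.25 (adjusted p = 7.05e-06) came to −3.0 ± 0.30 with mg54 and −1.23 ± 0.29 with mu86.

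The gene ent-1 (chromosome IV, 11652369 to 11655454 on ce10), an equilibrative nucleoside transporter, was the only entry that daf-16 raised in daf-2(e1368) and lowered in glp-1(e2141) with both effects past the threshold. It stood at 181, 212, 183, 198 and 178 CPM in the 5 daf-2(e1368) libraries, against 131, 147, 134, 155 and 151 CPM in its mg54 double and 153, 159, 125, 139 and 144 CPM in its mu86 double. In glp-1 strains ent-1 stood at 26.8, 32.4, 26.9, 29.9 and 22.8 CPM in the 5 glp-1(e2141) libraries, against 42.1, 41.1, 38.4, 33.7 and 33.9 CPM in its mg54 double and 36.5, 41.2, 40.8, 37 and 35 CPM in its mu86 double. Neither single mutant overlapped its doubles, and the directions were opposite. The effects were small, 0.40 ± 0.08 and −0.45 ± 0.08, and their difference was 0.86 ± 0.11 (adjusted p = 1.92e-05), nearly the same with mg54 (0.85 ± 0.13) as with mu86 (0.86 ± 0.13). The whole daf-2(e1368) family held more ent-1 RNA than the glp-1 family.

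The other 2 delta-9 desaturase genes were measured too. The gene fat-6, whose product shares the stearoyl-CoA reaction with FAT-7, averaged 503 ± 31.4 CPM in daf-2(e1368), 589.9 ± 54.8 CPM in the mg54 double and 642 ± 33.9 CPM in the mu86 double, and 1361 ± 206, 1160 ± 147 and 1076 ± 225 CPM in glp-1(e2141) and its mg54 and mu86 doubles. Neither effect of fat-6 passed, and the difference did so narrowly (−0.58 ± 0.14, adjusted p = 0.0419), a call that ended without any 1 of 20 of the 30 libraries (adjusted p up to 0.113). The gene fat-5, a palmitoyl-CoA desaturase, averaged 42 ± 8.93, 41.4 ± 11.5 and 36.1 ± 2.27 CPM in daf-2(e1368) and its doubles, and 207 ± 104, 101 ± 45.6 and 104 ± 25.1 CPM in glp-1(e2141) and its doubles. Its effect passed in glp-1(e2141) (1.01 ± 0.25, adjusted p = 0.00955), but the difference of −0.89 ± 0.37 did not (adjusted p = 0.363).

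A rise with daf-16 in glp-1(e2141) and no detected effect in daf-2(e1368) accounted for 17 of the 48 negative differences. F54C8.1 averaged 7.67 ± 2.81 CPM in daf-2(e1368), 10.8 ± 4.48 CPM in its mg54 double and 12.6 ± 4.16 CPM in its mu86 double, and 5.45 ± 1.03 CPM in glp-1(e2141), 2.39 ± 0.429 CPM in the mg54 double and 2.08 ± 0.23 CPM in the mu86 double. The glp-1(e2141) libraries lay above all of their doubles, the daf-2(e1368) libraries overlapped theirs, and the difference was −1.89 ± 0.31 (adjusted p = 8.13e-04). F28A12.4 had a smaller difference measured precisely, −0.51 ± 0.09 (adjusted p = 0.00127), with 319 ± 9.27, 339 ± 4.46 and 334 ± 17.5 CPM in daf-2(e1368) and its mg54 and mu86 doubles and 864 ± 68.3, 613 ± 68.5 and 667 ± 45.9 CPM in glp-1(e2141) and its doubles.

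The F-box gene fbxb-7, picked after its values were seen, had the difference of largest size among the 88. Over 5 libraries its counts summed to 183 in glp-1(e2141), against 8 over the 10 libraries of both doubles, a ratio of 48.9 (95% exact interval 24.3 to 115, which covers counting error only). In the daf-2(e1368) family the ratio was 1.45 (1.31 to 1.59, 789 against 908 counts). The level in daf-2(e1368) was 6.67, 5.99, 4.82, 5.94 and 6.5 CPM, its doubles ranged from 3.06 to 5.19 CPM, glp-1(e2141) held 2.75, 1.2, 2.06, 2.34 and 1.3 CPM, and its doubles ranged from 0 to 0.0767 CPM. The glp-1 doubles were therefore almost without fbxb-7 reads, while the daf-2(e1368) doubles were not. The fitted difference was −4.93 ± 0.38 (adjusted p = 7.13e-10) and depends on how the fit treats counts near 0.

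Also raised in glp-1(e2141) alone was sqrd-1, which encodes a mitochondrial sulfide:quinone oxidoreductase. It averaged 10.5 ± 0.908, 9.25 ± 1 and 9.82 ± 1.2 CPM in daf-2(e1368) and its mg54 and mu86 doubles, and 27.2 ± 17.2, 8.23 ± 0.998 and 10.6 ± 3.12 CPM in glp-1(e2141) and its doubles. The difference was −1.40 ± 0.29 (adjusted p = 0.0143), and −1.06 (adjusted p = 6.43e-04) without the 3 libraries that stood apart. A further 4 negative differences were larger rises in glp-1(e2141) of entries that passed upward in both backgrounds. The globin gene glb-1 (chromosome III, 8920018 to 8925178 on ce10) was one of them. It stood at 78.5, 68.3, 60.8, 75.3 and 76.2 CPM in the 5 daf-2(e1368) libraries, against 36.2, 37.4, 27.4, 38.1 and 33.5 CPM in its mg54 double and 31.7, 32.4, 28.1, 33.8 and 31.9 CPM in its mu86 double. Germline-less animals held 558, 181, 112, 113 and 185 CPM in the 5 glp-1(e2141) libraries, against 14.6, 16.9, 34.5, 20 and 15.9 CPM in its mg54 double and 12.7, 14.8, 15.8, 55.3 and 17 CPM in its mu86 double. Both single mutants lay above all of their doubles, and the highest value of each glp-1 strain was in the library of that strain that stood apart. The effect was 1.12 ± 0.31 in daf-2(e1368) and 3.40 ± 0.31 in glp-1(e2141), and the difference of −2.28 ± 0.46 (adjusted p = 0.00972) was −2.09 (adjusted p = 9.84e-09) without those 3.

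**Figure D2:**
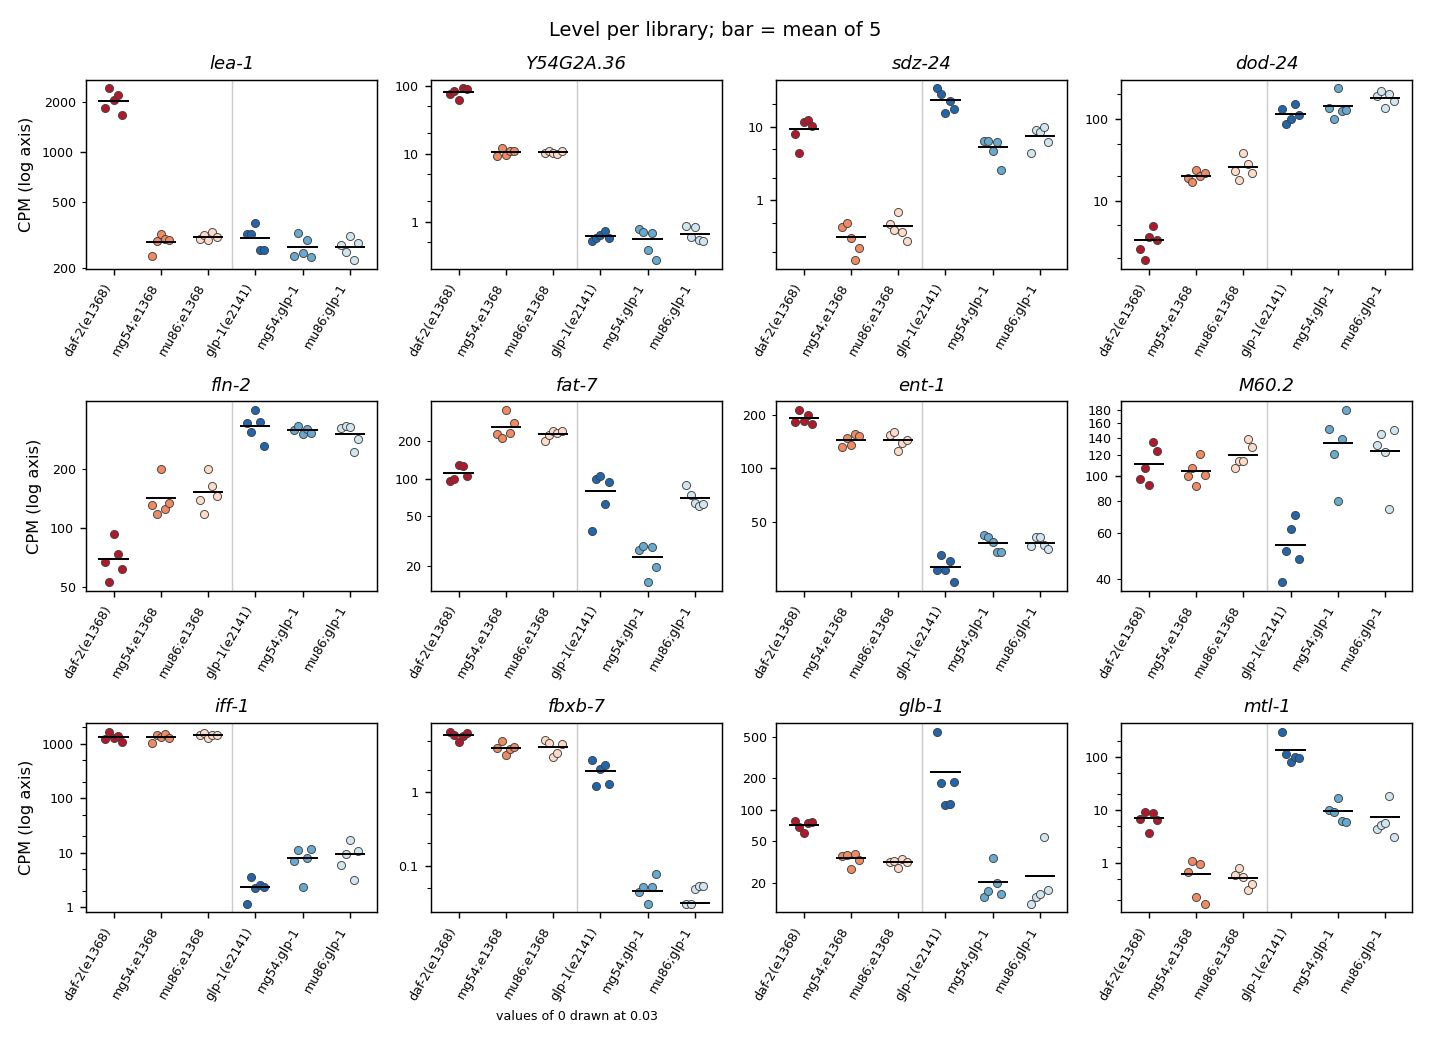
CPM on a log axis in each of the 30 libraries for 12 genes, with the daf-2(e1368) strains left of the grey line and the glp-1 strains right of it; points are libraries, bars are means of 5, and values of 0 are drawn at 0.03 CPM. The gap between single mutant and doubles is seen on the left but not on the right for lea-1 and Y54G2A.36, points up on the left and down on the right for ent-1, and is present on both sides for glb-1 and mtl-1.

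The other large group of positive differences, 20 of 40, consisted of entries lower in glp-1(e2141) than in its doubles with no detected effect in daf-2(e1368). M60.2 (chromosome X, 8242011 to 8247841 on ce10) was the one named by the rule on the largest differences. It stood at 97.4, 107, 91.9, 135 and 124 CPM in the 5 daf-2(e1368) libraries, against 99.6, 107, 91.4, 122 and 100.2 CPM in its mg54 double and 107, 114, 114, 138 and 129 CPM in its mu86 double. The same gene had 38.8, 51.3, 62.5, 70.3 and 47.5 CPM in the 5 glp-1(e2141) libraries, against 152, 121, 79.7, 138 and 179 CPM in its mg54 double and 132, 145, 124, 74.1 and 149.5 CPM in its mu86 double. The glp-1(e2141) libraries were all below both doubles and the daf-2(e1368) strains overlapped. The difference was 1.25 ± 0.22 (adjusted p = 0.0027), from effects of −0.01 ± 0.16 in daf-2(e1368) and −1.26 ± 0.17 in glp-1(e2141).

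Part of these entries were far more abundant in the family with a germline. Of the 21 entries with a positive difference and a negative effect in glp-1(e2141), 10 (47.6%) had a mean level at least 10 times higher over the daf-2(e1368) family than over the glp-1 family, against 8.37% of all entries tested and 24.0% of all 321 entries lowered in glp-1(e2141). The gene iff-1, which encodes a germline form of translation factor eIF5A, stood at 1214, 1650, 1294, 1365 and 1063 CPM in the 5 daf-2(e1368) libraries, against 1023, 1420, 1338, 1515 and 1278 CPM in its mg54 double and 1430, 1540, 1269, 1433 and 1451 CPM in its mu86 double. The glp-1 strains held it at 1.15, 3.55, 2.27, 2.52 and 2.37 CPM in the 5 glp-1(e2141) libraries, against 6.99, 11.2, 2.36, 7.98 and 11.7 CPM in its mg54 double and 5.96, 9.26, 17.2, 3.14 and 10.9 CPM in its mu86 double. The daf-2(e1368) strains overlapped at over 1000 CPM, and in the glp-1 family the single mutant ran lower than most doubles, with the library of each double that stood apart inside the single mutant range. The difference was 1.81 ± 0.40 (adjusted p = 0.0209). The call ended without daf-2(e1368) replicate 1, glp-1(e2141) replicate 0 or glp-1(e2141) replicate 4 (adjusted p up to 0.0542) and the difference was 1.88 (adjusted p = 9.40e-05) without the 3 libraries.

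The other genes named from this group were cdl-1, hoe-1, rpl-11.1 and dpy-10, the last of which is given with the collagens. The daf-2(e1368) libraries overlapped their doubles for cdl-1, hoe-1 and rpl-11.1. The glp-1(e2141) libraries lay below all of their doubles for hoe-1 and rpl-11.1 and overlapped them for cdl-1. The gene cdl-1, which encodes the stem-loop binding protein of histone mRNA, averaged 204 ± 31.6, 182 ± 18.9 and 183 ± 23.7 CPM in daf-2(e1368) and its mg54 and mu86 doubles, and 1.74 ± 0.371, 2.74 ± 0.455 and 2.79 ± 0.351 CPM in glp-1(e2141) and its doubles (difference 0.82 ± 0.17, adjusted p = 0.0126). The gene hoe-1, a homolog of the tRNA 3′ processing enzyme ELAC2, averaged 210.1 ± 12.9, 212 ± 11.1 and 218 ± 10.9 CPM in daf-2(e1368) and its doubles, and 19.2 ± 2.4, 36.9 ± 9.18 and 52.5 ± 22.4 CPM in glp-1(e2141) and its doubles (difference 1.17 ± 0.22, adjusted p = 0.00665); its level over the daf-2(e1368) family was 5.89 times that over the glp-1 family. The ribosomal protein gene rpl-11.1 averaged 2157 ± 270.3, 2195 ± 230.5 and 2378 ± 121 CPM in daf-2(e1368) and its doubles, and 12.5 ± 1.29, 20.6 ± 3.55 and 20.1 ± 4.01 CPM in glp-1(e2141) and its doubles (difference 0.62 ± 0.15, adjusted p = 0.0349), a call that ended without any 1 of 13 libraries (adjusted p up to 0.107). The genes iff-1, cdl-1 and hoe-1 were chosen after their values were seen. Among the glp-1 strains, oogenic germline markers summed to a median of 121 CPM in glp-1(e2141), 134 CPM in the mg54 double and 149.9 CPM in the mu86 double, with overlapping ranges of 116 to 172, 120.0 to 223 and 129 to 249.7 CPM, and their part in these results was not tested. Of the 33 oogenic marker entries, 1 was at 0 in all 30 libraries.

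**Figure D3:**
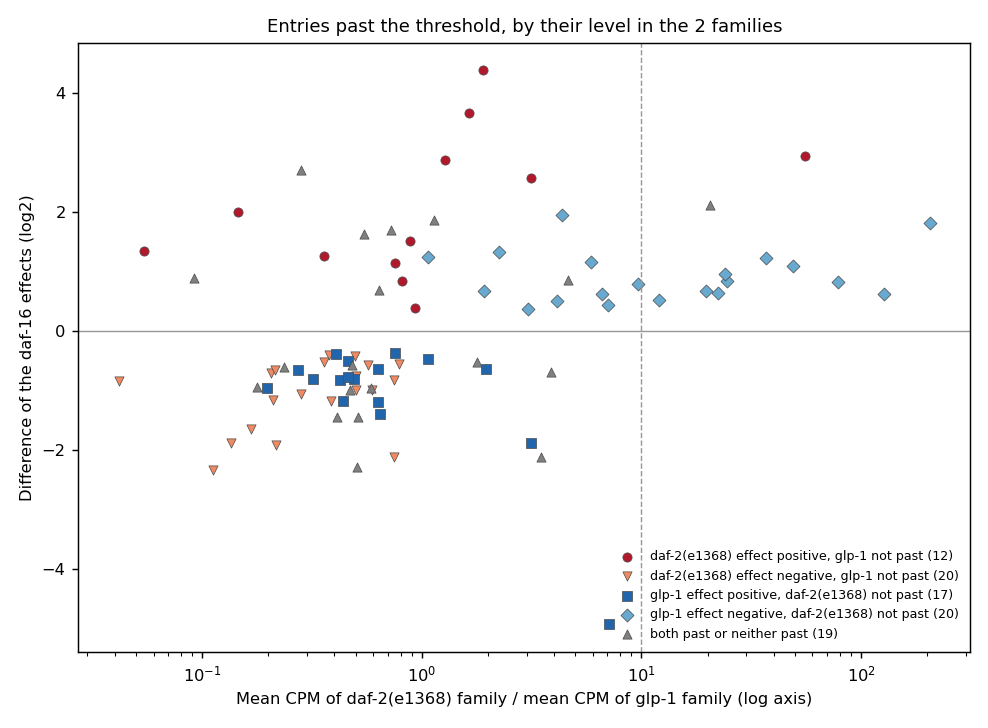
Each point is 1 of the 88 entries past the threshold, placed by its mean CPM over the daf-2(e1368) family divided by that over the glp-1 family (x, log axis) and by the difference of the daf-16 effects (y, log2). Of the 12 entries right of the dashed line at a ratio of 10, all have a positive difference, and 10 have a negative effect in glp-1(e2141).

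The number of differences depended on the daf-16 allele used. Tested with the mg54 doubles alone, 26 entries passed (0.271%), and with the mu86 doubles alone 68 passed (0.708%), the 2 tests sharing their single mutant libraries. Of the 88 entries, 16 passed with each allele on its own, 9 with mg54 but not mu86, 40 with mu86 but not mg54 and 23 with neither. The sign was the same with both alleles for 86 of the 88, the exceptions being H22K11.2 and haf-6. H22K11.2 averaged 25.9 ± 1.27, 24.5 ± 2.3 and 3.68 ± 0.477 CPM in daf-2(e1368) and its mg54 and mu86 doubles, and 54.6 ± 4.83, 45.6 ± 3.64 and 50.5 ± 4.83 CPM in glp-1(e2141) and its doubles. The 5 daf-16(mu86);daf-2(e1368) libraries held 3.37, 3.41, 3.59, 3.52 and 4.52 CPM and the other strains no less than 21.4 CPM, so the difference was −0.18 ± 0.13 with mg54 and 2.71 ± 0.14 with mu86.

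The half-molecule ABC transporter gene haf-6 averaged 17.5 ± 2.57, 16.6 ± 1.26 and 48.4 ± 3.97 CPM in daf-2(e1368) and its mg54 and mu86 doubles, and 56.5 ± 9.27, 55.8 ± 7.59 and 52.9 ± 11.5 CPM in glp-1(e2141) and its doubles, with differences of 0.06 ± 0.19 for mg54 and −1.56 ± 0.19 for mu86. The ribonuclease H gene rnh-1.3 had 0.52 ± 0.20 and 1.77 ± 0.20, and clec-52 had 0.15 ± 0.17 and 1.21 ± 0.17. Each mu86 double is a single strain, so an effect of the mu86 allele and another variant carried by that strain cannot be told apart. The difference of the mg54 and mu86 values of these genes was not itself tested here, and the genes H22K11.2 and rnh-1.3 were chosen after their values were seen.

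The daf-16 transcript itself had a positive difference, with 236 ± 8.82, 122 ± 9.27 and 232 ± 29.3 CPM in daf-2(e1368) and its mg54 and mu86 doubles, and 187 ± 35.2, 145 ± 39.3 and 396 ± 41.5 CPM in glp-1(e2141) and its doubles (0.85 ± 0.17, adjusted p = 0.0074). Each mg54 double was below its single mutant on average, and the mu86 double was far above its single mutant in the glp-1 family. Since daf-16 carries the mutations, this value describes mutated transcripts. The daf-2 transcript rose with daf-16 in both backgrounds (0.41 ± 0.09 and 0.42 ± 0.09), with a difference of −0.02 ± 0.13 (adjusted p = 0.979).

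**Figure D4:**
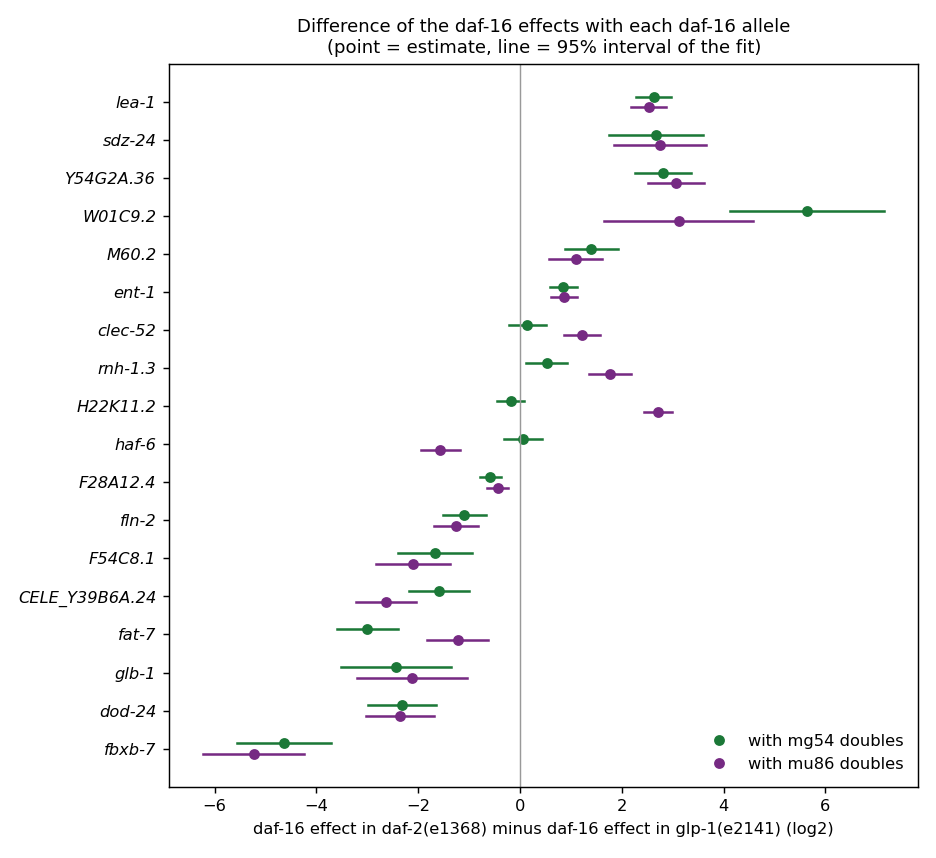
The difference of the daf-16 effects (log2) for 18 genes, computed with the mg54 doubles (green) and with the mu86 doubles (purple); points are estimates and lines are 95% intervals of the fit. The 2 values nearly coincide for lea-1, ent-1 and dod-24, and the mg54 value is near 0 while the mu86 value is not for H22K11.2, haf-6 and clec-52.

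Large effects in both backgrounds without a difference that passed were then taken by rank. Among them mtl-1, a metallothionein gene that serves as a standard DAF-16 target, stood at 6.86, 9.17, 3.66, 8.66 and 6.5 CPM in the 5 daf-2(e1368) libraries, against 0.672, 1.07, 0.23, 0.962 and 0.168 CPM in its mg54 double and 0.594, 0.787, 0.529, 0.309 and 0.391 CPM in its mu86 double. With glp-1(e2141) as background it stood at 298, 112, 79, 98.1 and 93.7 CPM in the 5 glp-1(e2141) libraries, against 9.86, 9.13, 17.1, 6.13 and 5.79 CPM in its mg54 double and 4.31, 5.19, 5.66, 18.1 and 3 CPM in its mu86 double. Both single mutants lay above all their doubles, from base levels that were much higher in the glp-1 family. The effect was 3.56 ± 0.42 in daf-2(e1368) and 4.03 ± 0.35 in glp-1(e2141), and the interval of their difference, −1.68 to 0.75, includes effects that differ by over 1 log2 unit. The glutathione S-transferase gene gst-29 had effects of 3.88 ± 0.39 and 2.77 ± 0.30 (interval of the difference 0.05 to 2.15), R05H10.7 had 5.84 ± 0.38 and 5.03 ± 0.38 (−0.49 to 2.11), and CELE_C08F11.3 had 4.95 ± 0.30 and 4.39 ± 0.28 (−0.39 to 1.5). T23F4.3 had 4.66 ± 0.50 and 5.47 ± 0.44 (−2.47 to 0.85) and CELE_M01B2.13 had 3.46 ± 0.46 and 3.18 ± 0.40 (−0.94 to 1.49).

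F21C10.11 had 5.58 ± 0.45 and 3.28 ± 0.34, with a difference of 2.29 ± 0.60 that missed the threshold (adjusted p = 0.0651, interval 1.06 to 3.53) and passed without the 3 libraries that stood apart (2.13, adjusted p = 0.00315). CELE_Y6G8.9 had 399 counts over the 5 daf-2(e1368) libraries and 0 in all 10 of the doubles, which makes it at least 222-fold higher against a floor of 3 counts over the 10 doubles. In glp-1(e2141) it had 384 counts against 17 in the doubles, a ratio of 48.3 (95% exact interval 29.8 to 83.7). Its difference did not pass (adjusted p = 0.0944), and passed without the 3 libraries that stood apart (adjusted p = 0.0158). Across the 1111 entries called in either background, the effect in daf-2(e1368) had a Pearson correlation of 0.704 and a Spearman correlation of 0.693 with the effect in glp-1(e2141), a description over genes that share libraries within each family and none between them.

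Gene lists drawn from textbook knowledge were then described by their counts and medians, beside those of all entries tested, whose medians were −0.04 for the difference, −0.01 for the effect in daf-2(e1368) and 0.01 for that in glp-1(e2141). Over all entries, the difference passed for 0.916%, the effect in daf-2(e1368) for 5.29% and that in glp-1(e2141) for 8.36%. At such a share, a short list without a passing difference is no result about its members. Of 45 lists with tested members, 15 had a member whose difference passed and 30 had none, and without the 3 libraries that stood apart 30 had one. Class I genes, the textbook set raised by DAF-16 in daf-2 mutants, rose in 13 of 22 in daf-2(e1368) (median effect 1.14) and in 12 of 22 in glp-1(e2141) (median 0.96), with none lower in either, and their difference was positive for 2 and negative for 0 (median 0.07), against 2 and 1 without the 3 libraries that stood apart. Those with both effects past the threshold included the superoxide dismutase gene sod-3 (2.71 and 2.52, difference 0.19), the lysozyme gene lys-7 (2.08 and 2.05, difference 0.03), the ferritin gene ftn-1 (2.67 and 1.82, difference 0.84) and the isocitrate lyase gene icl-1 of the glyoxylate cycle (1.42 and 1.12, difference 0.30). The members whose difference passed were lea-1 and lipl-1.

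Class II genes, the set lowered by DAF-16 in daf-2 mutants, fell in 4 of 9 in daf-2(e1368) (median −0.41) and in 0 of 9 in glp-1(e2141), where 2 rose. All 9 differences were below 0 (median −0.72), and 2 of them passed, fat-7 and dod-24. For the intestinal genes dod-23 and dod-17 the effects were −1.32 and −1.48 in daf-2(e1368) and −0.59 and −0.76 in glp-1(e2141), with differences of −0.72 and −0.72 that did not pass. Without the 3 libraries that stood apart, 4 of the 9 differences passed, all negative, and dod-23 was among them (−0.93, adjusted p = 9.47e-04). The list was assembled from daf-2 studies, so its direction in daf-2(e1368) is not independent. That effect is part of the difference, so the negative sign of the 9 differences is not independent either.

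Lists made for germline-less longevity were set beside these. The regulators, such as the transcription factor genes nhr-80, nhr-49, pha-4 and hlh-30, the steroid pathway genes daf-12, daf-9 and daf-36, and tcer-1, had 0 of 23 differences past the threshold, with values from −0.31 to 0.21. With 0.916% of all entries passing, 0 of 23 does not set the regulators apart. The downstream genes had 1 positive and 3 negative of 20 (1 and 1 with median-of-ratios size factors), with a median effect of 0.08 in daf-2(e1368) and 0.51 in glp-1(e2141). Of the lysosomal lipases in it, lipl-4, known to extend life when raised, had effects of 1.13 and 2.01 with a difference of −0.88 that did not pass. The lipase gene lipl-5 had −0.11 and 0.53 with a difference of −0.65 ± 0.14 (adjusted p = 0.0173), a call that ended with median-of-ratios size factors. The lipase gene lipl-1 had 1.38 and −0.63, from 1.67 ± 0.516, 0.459 ± 0.188 and 0.876 ± 0.234 CPM in daf-2(e1368) and its doubles and 5 ± 2.13, 9.05 ± 3.78 and 6.57 ± 2.87 CPM in glp-1(e2141) and its doubles. The lipl-1 difference of 2.0 ± 0.46 passed (adjusted p = 0.0264), and not without daf-2(e1368) replicate 3 or 4 or glp-1(e2141) replicate 0 or 4 (adjusted p up to 0.0741).

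In several metabolic lists fewer members rose in daf-2(e1368) than in glp-1(e2141), and no member's difference passed with all 30 libraries. The same skew held over all entries tested, of which 2.42% rose in daf-2(e1368) and 5.02% in glp-1(e2141). It is therefore not particular to these lists. With each family fitted alone, more entries passed in daf-2(e1368) than in glp-1(e2141), and the list counts were not made with that fit. The difference passed for 0.916% of all entries. Of 32 enzymes of beta-oxidation and acyl-CoA metabolism, 2 rose and 1 fell in daf-2(e1368) (median 0.08) while 12 rose and 0 fell in glp-1(e2141) (median 0.32), and 0 differences passed (median −0.19), against 2 negative without the 3 libraries that stood apart. Among these were the enoyl-CoA hydratase genes ech-1 (0.09 in daf-2(e1368) and 1.03 in glp-1(e2141)) and ech-7 (−0.08 and 0.61), and daf-22, the peroxisomal thiolase that trims ascaroside pheromones (0.05 and 0.33). Of 28 alcohol, steroid and aldehyde dehydrogenases, 3 rose in daf-2(e1368) and 13 in glp-1(e2141), and 0 differences passed (median −0.23). Without the 3 libraries, 6 of these rose in daf-2(e1368) and 13 in glp-1(e2141), and 3 differences passed, all negative. Of 22 cytochrome P450 genes, 1 fell in daf-2(e1368), 5 rose and 2 fell in glp-1(e2141), and 0 differences passed (median −0.38), against 1 positive and 3 negative without the 3 libraries. Of 29 transthyretin-related genes, 3 rose in daf-2(e1368) and 8 in glp-1(e2141), again with 0 differences (median −0.21), and without the 3 libraries 5 rose in daf-2(e1368) and 12 in glp-1(e2141). A count in one background set against a count in the other is no test of the difference.

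Small heat shock protein genes rose in 1 of 7 in daf-2(e1368) (median 0.10) and in 4 of 7 in glp-1(e2141) (median 0.93). Without the 3 libraries that stood apart, 3 of the 7 rose in glp-1(e2141). All 7 differences were below 0 with 0 past the threshold (median −0.54), against a median of −0.04 over all entries. The heat inducible genes hsp-16.2 (0.30 and 1.43) and hsp-16.41 (0.10 and 1.17) passed in glp-1(e2141) alone, whose animals were at 25 °C, while hsp-12.6, a class I gene, passed in both (1.34 and 1.46). Cytosolic ribosomal protein genes fell in 0 of 54 in daf-2(e1368) (median −0.11) and in 9 of 54 in glp-1(e2141) (median −0.24). The count in glp-1(e2141) was 3 without the 3 libraries that stood apart and 14 with scaling within each family. Their difference was positive for 1, rpl-11.1, and above 0 for 49 of 54 (median 0.14, against −0.04 over all entries). The share above 0 over all entries was not computed. With median-of-ratios size factors the list median was 0.21 with 0 differences past the threshold, and the median over all entries was 0.03. Collagen genes had a median effect of −0.09 in daf-2(e1368) and −0.49 in glp-1(e2141), with 1 positive and 1 negative difference of 99, against 4 and 2 without the 3 libraries. The positive one with all 30 libraries was dpy-10 (1.95 ± 0.40, adjusted p = 0.0121), a cuticle collagen gene. It averaged 4.1, 3.43 and 3.5 CPM in daf-2(e1368) and its mg54 and mu86 doubles, with no detected effect. In glp-1(e2141) and its doubles it averaged 0.32, 0.788 and 1.42 CPM, and this fall passed. The glp-1(e2141) libraries held only 3, 6, 9, 7 and 6 counts and overlapped the mg54 double.

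Cell type markers gave the following. No tested marker difference passed among 12 oogenic, 17 sperm, 6 embryo, 10 somatic gonad, 14 intestine, 16 body wall muscle, 7 pharynx, 13 hypodermis and 21 neuron genes with all 30 libraries. The share over all entries was 0.916%, so 0 in lists of these sizes says little about any of them. Without the 3 libraries that stood apart, 1 intestine marker had a negative difference, and 1 body wall muscle and 1 hypodermis marker had a positive one. Pharynx markers had a median effect of −0.75 in daf-2(e1368) and −0.21 in glp-1(e2141), and sperm markers −0.46 and 0.05. Pharynx markers summed to 28.2 to 72.2 CPM in daf-2(e1368), 45.5 to 112 CPM in its mg54 double and 60.9 to 144 CPM in its mu86 double, and to 31.3 to 156, 57.4 to 215 and 36 to 206 CPM in glp-1(e2141) and its doubles. Of the 11 pharynx marker entries, 2 were at 0 in all 30 libraries. The 5 vitellogenin genes were listed at 0 in all 30 libraries and were not tested. Whether the marker shifts take part in any difference above was not tested.

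**Figure D5:**
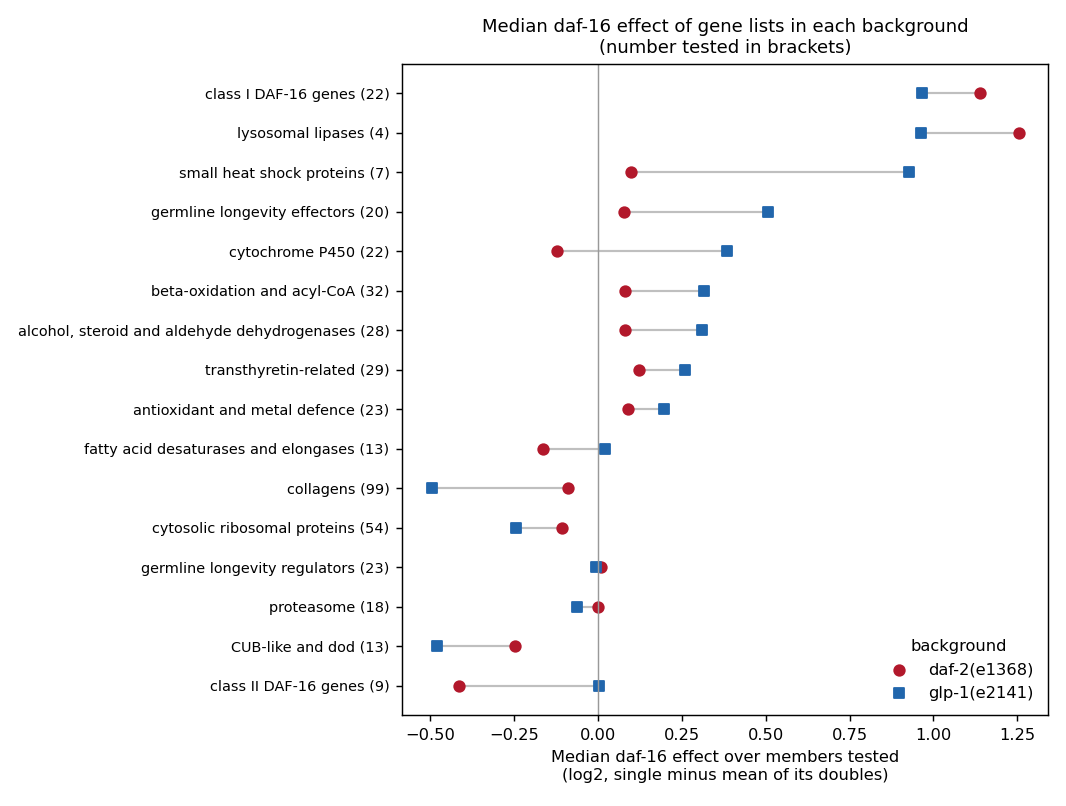
Median daf-16 effect (log2) over the tested members of 16 gene lists in daf-2(e1368) (red circles) and in glp-1(e2141) (blue squares), with the number of members tested in brackets. The markers lie closer together for class I genes than for small heat shock proteins, cytochrome P450 genes, germline longevity effectors, class II genes and collagens. The difference passed for 0 small heat shock proteins, 0 cytochrome P450 genes and 2 class II genes. Among the effectors it passed for 1 positive and 3 negative members, and among collagens for 1 positive and 1 negative.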

How the data were processed

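RNA was measured in 30 libraries. Per the submitters' processing notes, the tools were TopHat2 2.0.9 with Bowtie2 2.1.0, Cuffdiff 2.1.1, Cufflinks, cutadapt and FastQC 0.10.1, on build ce10. No source used here states how strand was handled, so reads of a gene and of its overlapping or antisense partner may be mixed. The authors deposited expected counts per gene entry. Of 34207 entries, 314 had no gene name (0.187 to 0.48% of fragments) and were left out, repeated entries were summed, and 440 entries at loci with failed estimates were not tested. Entries naming several genes held 25.4 to 35.1% of fragments.

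Counts were rounded and fitted over 6 strains with edgeR 4.0.16 (R 4.3.3): TMM scaling, a filter on low counts passed in both families (9610 entries tested), robust quasi-likelihood F-tests and Benjamini-Hochberg adjustment over all entries. The test was checked on simulated counts with independent libraries and the same spread between replicates for every gene. These held no shared deviation of replicate numbers and no libraries that stood apart. The check therefore does not give the error rate in the present data. P-values measure the spread between these libraries. Alternatives were other scalings and filters, limma 3.58.1, DESeq2 1.42.0, a replicate block and leaving out libraries; leaving out the 3 libraries that stood apart was chosen after seeing the data.

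The comparison and gene lists were chosen with earlier results of these data known. Genes named are single-gene entries with the largest differences whose mg54 and mu86 values both pass, opposite effects, the largest shared effects, up to 4 members a list by p, and label checks. Exceptions are stated as chosen after their values were seen. No promoter or protein sequence was used here.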

Additional observations from a re-analysis of the deposited data

Results flagged for a closer look

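The daf-16 effects differed between daf-2(e1368) and glp-1(e2141), by the test of the difference itself, for 88 entries. The named ones with a positive log2 difference were W01C9.2 (4.38), ugt-18 (3.65), Y54G2A.36 (2.93), clec-76 (2.88), sdz-24 (2.71), lea-1 (2.58), lipl-1 (2.0), dpy-10 (1.95), iff-1 (1.81), H22K11.2 (1.26), M60.2 (1.25), hoe-1 (1.17), rnh-1.3 (1.14), ent-1 (0.86), daf-16 (0.85), cdl-1 (0.82), clec-52 (0.68) and rpl-11.1 (0.62). Those with a negative log2 difference were fbxb-7 (−4.93), dod-24 (−2.34), glb-1 (−2.28), fat-7 (−2.11), CELE_Y39B6A.24 (−2.11), F54C8.1 (−1.89), sqrd-1 (−1.40), fln-2 (−1.18), haf-6 (−0.75), lipl-5 (−0.65), fat-6 (−0.58) and F28A12.4 (−0.51).

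Single libraries lay far from the other 4 of their strain for several named genes. Chance gives such a library in about 1 of 20 groups, and 58 of 592 groups of a gene and a strain had one. In daf-16(mu86);glp-1(e2141) replicate 3 the high values were 1411 CPM for lipl-5, 59.0 CPM for H22K11.2, 55.3 CPM for glb-1, 18.1 CPM for mtl-1, 16.12 CPM for sqrd-1, 15.9 CPM for rnh-1.3, 9.05 CPM for F21C10.11 and 0.479 CPM for clec-76. In glp-1(e2141) replicate 0 they were 558 CPM for glb-1, 298 CPM for mtl-1, 30.1 CPM for T23F4.3 and 7.42 CPM for CELE_Y6G8.9. In daf-16(mg54);glp-1(e2141) replicate 2 they were 236 CPM for dod-24 and 34.5 CPM for glb-1. These are the 3 libraries that stood apart. In daf-16(mg54);daf-2(e1368) replicate 2 the high values were 199 CPM for fln-2 and 18.4 CPM for F54C8.1. Other single values were a high 6.29 CPM for dpy-10 in daf-2(e1368) replicate 1, a low 448 CPM for fat-6 in daf-2(e1368) replicate 4 and a high 4.52 CPM for H22K11.2 in daf-16(mu86);daf-2(e1368) replicate 4. The last were a low 0.051 CPM for CELE_M01B2.13 in daf-16(mg54);glp-1(e2141) replicate 1 and a low 0.321 CPM for H36N01.2,H36N01.3,R13H8.4 in glp-1(e2141) replicate 3.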

How the results depend on the processing

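Over the named genes no difference that passed reversed its direction. Differences near 0 that did not pass could change sign. That of daf-2 was negative with all 30 libraries and 0.09 without the 3 that stood apart. Of the 88 differences, 44 kept their call without each of the 30 libraries in turn, 37 kept it under every other setting tried and 28 under both. Leaving out single libraries moved the count of differences between 54 and 196, the count with mg54 alone between 18 and 43, the count with mu86 alone between 36 and 148, and the effects between 355 and 602 calls in daf-2(e1368) and between 519 and 1186 in glp-1(e2141). The count for glp-1(e2141) was lowest without its replicate 0, and the highest counts for the difference and for glp-1(e2141) were without daf-16(mu86);glp-1(e2141) replicate 3. Without daf-16(mg54);glp-1(e2141) replicate 2, 134 differences passed. Without the 3 libraries that stood apart, 299 differences passed, 132 with mg54 and 198 with mu86. With limma voom and quality weights, 330 differences passed, 1099 effects in daf-2(e1368), 1245 in glp-1(e2141), 259 differences with mg54 and 254 with mu86. With no filter, 57 differences passed and 32 with mu86. With the filter over all 30 libraries, 42 passed with mg54 and 38 with mu86. With all 50 libraries in the fit, 41 passed with mg54. Keeping all loci gave 194 differences, 113 with mg54 and 236 with mu86. Fitting each family alone gave 808 effects in daf-2(e1368) and 484 in glp-1(e2141). DESeq2 called 108 differences. The causes were not tested. Named calls that other settings ended were F54C8.1 and clec-52 with all 50 libraries, F28A12.4, lipl-5 and rpl-11.1 with median-of-ratios size factors, cdl-1 with limma voom, and fat-6 and haf-6 with median-of-ratios size factors and with other filters.

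With the replicate number as a block within each family, 130 differences passed (53 positive, 77 negative), 80 of them among the 88. Under it 284 effects in daf-2(e1368) were higher and 447 lower, against 233 and 275 without it, and 526 in glp-1(e2141) were higher and 405 lower. The fat-6 difference lost its call, leaving 1 of the 2 in the desaturase list, while ech-1 and ech-7 passed, so that 3 differences of the beta-oxidation list did. Of the sperm markers, 6 fell in daf-2(e1368) against 0 without the block, and 19 ribosomal protein genes fell in glp-1(e2141) against 9. Same-numbered libraries of the daf-2(e1368) family had deviations correlated over 0.1 in 14 of 15 pairs (correlations 0.0761 to 0.736), and 13 of 15 libraries correlated best with their own number. In the glp-1 family this held for 1 of 15 pairs (−0.456 to 0.709) and 2 of 15 libraries, and since not every pair was over 0.1 in either family, the numbers were not taken as pairs.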
